A study of Mus musculus with 4 samples.

Results

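Macrophage 4 is a cluster of alveolar macrophages that the authors drew from single-cell transcriptomes of mouse lung lavage. Its members were the cells that the deposited annotation names both Macrophage 4 at the fine level and alveolar macrophage at the coarse level. There were 1053 of them among 9925 cells in all, and 1029 of the 1053 came from mice exposed to dust alone. Another 5 cells with the fine name but an epithelial coarse name, 4 of APM and 1 of control, were left out.

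All mice were C57BL/6, with no transgene or deleted gene named in the labels, and each group gave 1 library from the pooled lavage of 7 animals. The APM group breathed aerosolized Afghanistan particulate matter (APM), a mineral dust, at 5 mg/m3 in whole-body chambers for 6 hours a day on 12 days, and later received saline (PBS) through the nose. The HDM+APM group had the same dust and then 10 µg of house dust mite (HDM) allergen per dose. The HDM group breathed filtered air and then received HDM, and the control group had filtered air and saline. Nasal dosing started 9 days after the last dust exposure: the sensitizing doses fell on days 22 and 29 and the challenge doses on days 36, 37 and 38, and lungs were lavaged on day 39. Each mouse was lavaged 5 times, the cells passed 70 and 40 µm strainers, and 60 to 80% were viable. The labels do not state the age of the mice.

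Alveolar macrophages live on the inner surface of the air sacs, where they take up inhaled particles, dying cells and spent surfactant. They depend on the growth factor GM-CSF and on the nuclear receptor PPARγ, and their metabolism is turned to lipid uptake and oxidation. Fatty acid binding proteins carry lipid inside such cells; in the mouse, Fabp4 and Fabp5 are the usual alveolar macrophage forms, whereas Fabp1 is best known from liver and gut.

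The label names Fabp1 and the chemokine Ccl6 as the cluster's markers. Over all 1053 cells, Fabp1 was the gene with the highest log2 ratio against all other cells of the 4 libraries, with 653 against 204 CPM, the UMIs of a gene relative to the UMI total of the cells and scaled to a fixed total. Ccl6 was the last of the 10 leading genes, with 6305 against 2725 CPM. The others among the 10 were Krt19, Wfdc21, C5ar1, Phlda1, Kazald1, Lepr, Krt79 and Gal. Krt79, a keratin known from mouse alveolar macrophages, was the alveolar macrophage marker among them. The authors made their clusters from these same transcripts, so every difference between clusters below describes the cluster and tests nothing.

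The promoters of both label markers are shown because they carry the same uncommon arrangement of letters. The 250 bases before each gene start are given 5′ to 3′ on the gene's own strand, from RefSeq on build GRCm38.p6, with the match in capitals.
Fabp1, chr6:71199629-71199878, plus strand: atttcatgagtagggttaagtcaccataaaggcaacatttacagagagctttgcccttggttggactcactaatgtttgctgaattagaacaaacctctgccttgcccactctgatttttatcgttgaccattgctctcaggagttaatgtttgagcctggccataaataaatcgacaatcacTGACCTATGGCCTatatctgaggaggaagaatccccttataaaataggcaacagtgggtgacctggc
Ccl6, chr11:83593088-83593337, minus strand: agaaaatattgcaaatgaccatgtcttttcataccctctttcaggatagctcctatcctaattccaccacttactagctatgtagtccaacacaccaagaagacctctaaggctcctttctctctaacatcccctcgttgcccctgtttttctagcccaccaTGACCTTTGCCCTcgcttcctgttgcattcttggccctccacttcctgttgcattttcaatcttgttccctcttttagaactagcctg
The capitals mark a direct repeat of TGNCCT with 1 base between the copies, the general form of site that PPAR and its partner RXR are known to bind. In Fabp1 the match starts 67 bases and in Ccl6 88 bases before the RefSeq gene start. The GENCODE start of Fabp1, used for its coordinates below, lies 52 bases upstream of the RefSeq start, inside the printed window, so the match starts 15 bases before it; both starts of Ccl6 are the same base. Searched on both strands of 300-base windows, from 250 before to 50 after the start, the repeat was held by 122 of 27025 genes with a window, or 0.451%. Its spelling was chosen with the Fabp1 window in view. Of the 12 genes that were highest in Macrophage 4 by the rule below, 8 had a window and Fabp1 alone held the repeat. Of the 12 lowest, 8 had a window and Gdf15 held it. A match describes these letters; it is neither a shown binding site nor a cause of the levels.

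The share of Macrophage 4 cells was far higher in APM than in any other library. It was 26.5% in APM (1029 of 3890 cells; exact binomial 95% interval 25.1 to 27.9%). It was 0.178% in HDM+APM (2 of 1123 cells; 0.0216 to 0.642%), 0.101% in HDM (1 of 994; 0.00255 to 0.559%) and 0.536% in control (21 of 3918; 0.332 to 0.818%). Of all Macrophage 4 cells, 97.7% (96.6 to 98.5%) were thus from APM. The HDM libraries were also poor in alveolar macrophages as a whole. Of alveolar macrophages alone, Macrophage 4 made up 27.8% of 3697 in APM, 1.29% of 155 in HDM+APM, 0.503% of 199 in HDM and 0.541% of 3882 in control. The HDM+APM value has only 2 cells behind it. These intervals, and all others here, cover counting error only. With 1 pooled library per group, a difference between groups has no replicate check, and no p-value is given.

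**Figure D1:**
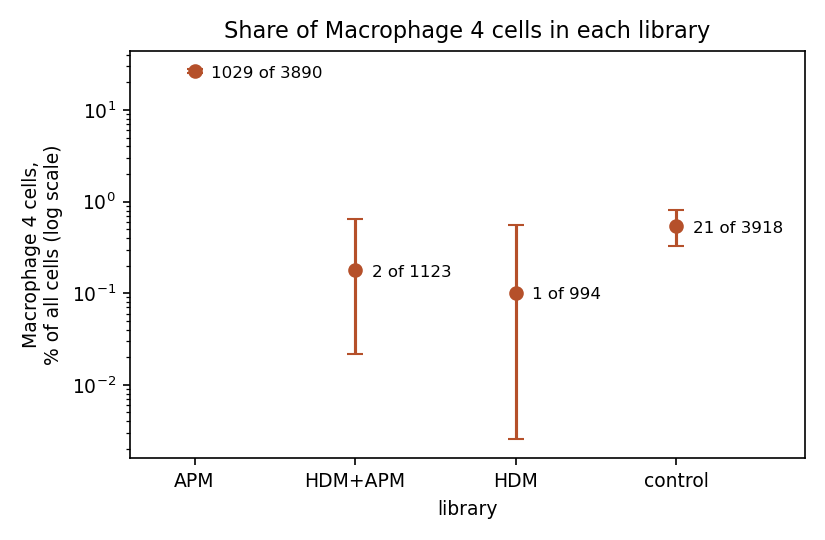
Macrophage 4 cells as a percentage of all cells in the APM, HDM+APM, HDM and control libraries, on a log axis. Points are the 4 pooled libraries, bars are exact binomial 95% intervals, and the APM point at 26.5% lies above the intervals of the other 3.

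The cells had the profile of alveolar macrophages. All 17 listed alveolar macrophage markers were detected in Macrophage 4 of APM. The same held for the other alveolar macrophage clusters and for Macrophage 8 of APM, so detection alone sets no cluster apart. The markers summed to 17670.0 CPM in Macrophage 4 and 16178 CPM in the other clusters of APM. They summed to 10968 CPM in Macrophage 8 of APM and 1822 CPM in APM T cells. Chil3 alone gave 7873 CPM of the sum in Macrophage 4 and 6723 CPM of that in the other clusters. Of 12 markers of cavity macrophages, 11 were at 0, among them Gata6 and Prg4. Of 14 classical monocyte markers, 6 were at 0, including Ly6c2 and F13a1; their sum of 8116 CPM was nearly all Chil3, at 7873 CPM, which alveolar macrophages also make. All 6 natural killer markers in the matrix were at 0. The 18 markers of monocyte-derived or interstitial macrophages summed to 477 CPM in Macrophage 4 of APM and 698 CPM in the other clusters of APM. Cd163, Folr2, Lyve1 and Arg1 were at 0 in Macrophage 4 and at no more than 1 UMI in the other clusters. The largest members in Macrophage 4 were Gpnmb, Csf1r and Trem2. They had 204, 88.0 and 75.6 CPM there, against 408, 75.9 and 89.5 CPM in the other clusters of APM.

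Macrophage 4 differed in typical depth from its nearest clusters, with overlap. Its 1029 APM cells held 2816868 UMIs, with a median of 2657 per cell and 80% of cells, from the 10th to the 90th percentile, between 2197 and 3423. In Macrophage 6 of APM that middle range ran from 1491 to 2196 UMIs, and in Macrophage 5 of APM from 3377 to 6129. The middle ranges of the 3 clusters therefore met almost end to end. Their full ranges overlapped, with 883 to 2750 UMIs in Macrophage 6, 1787 to 4431 in Macrophage 4 and 2606 to 8856 in Macrophage 5. The same 3 clusters were the most alike in expression: over 5127 genes, the Pearson correlation of log2(CPM + 10) with Macrophage 4 was 0.988 for Macrophage 6 and 0.985 for Macrophage 5, against 0.955 for Macrophage 1 of the same library. These correlations are across genes, which are not independent replicates. Macrophage 1 of control stood at 0.973. How far depth set the borders of these clusters was not tested. The median mitochondrial share was 2.58% of UMIs in Macrophage 4 and 2.67% in the other clusters of APM.

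**Figure D2:**
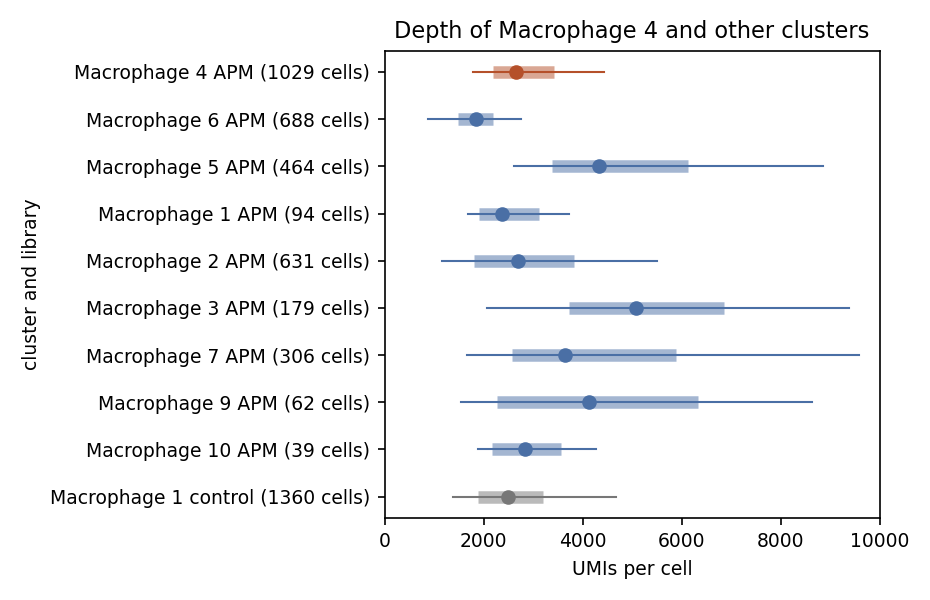
UMIs per cell in Macrophage 4, in 8 other alveolar macrophage clusters of APM and in Macrophage 1 of control. Points are medians, thick bars the 10th to 90th percentiles and thin lines the full range; the thick bars of Macrophages 6, 4 and 5 meet almost end to end.

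Within APM, Macrophage 4 was set against the 2463 pooled cells of Macrophages 1 to 3, 5 to 7, 9 and 10. UMIs were summed over cells and scaled to CPM, and a gene was counted as higher or lower when its log2 ratio, with a pseudocount of 10 CPM, passed a 1.5-fold difference. The pseudocount understates the ratio of low genes. Of 5127 measured genes, 55 (1.07%) were higher and 156 (3.04%) were lower in Macrophage 4, and the median log2 ratio of all measured genes was 0.05. None of the higher genes reached 2-fold on this scale, while 45 of the lower ones did.

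Fabp1, at chr6:71199827-71205023 (GENCODE vM21, GRCm38), had 656 CPM in Macrophage 4 and 361 CPM in the other clusters of APM, a ratio of 1.82 (1.71 to 1.93). By cluster of APM it had 662 CPM in Macrophage 6, 487 in Macrophage 5, 442 in Macrophage 7, 411 in Macrophage 10, 321 in Macrophage 1, 119 in Macrophage 2, 99.7 in Macrophage 3 and 72.0 in Macrophage 9. Macrophages 4 and 6 were thus level at the top, and Macrophages 2, 3 and 9 formed a low group. APM T cells, which should lack the gene, had 95.9 CPM. After each cell was thinned to 1000 UMIs, 38.0% of Macrophage 4 cells (35.0 to 41.0%) had a Fabp1 UMI, against 24.6% (22.9 to 26.3%) of the other cells, with 3 of those shallower cells left out, and 6.06% of 33 T cells, with 19 left out. Unthinned, the shares were 62.2% of Macrophage 4 cells, 46.9% of the others and 11.5% of T cells, at median depths of 2657, 2843 and 1129.5 UMIs. Most Macrophage 4 cells thus held no Fabp1 UMI at the thinned depth.

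Ccl6, at chr11:83587882-83593087, encodes a CC chemokine that mouse macrophages secrete. It had 6356 CPM in Macrophage 4 and 4247 CPM in the other clusters of APM, a ratio whose interval was 1.47 to 1.52 and which falls just short of the 1.5-fold mark on the log2 scale, at 0.58. The highest level was not in Macrophage 4 but in Macrophage 5 of APM, with 7633 CPM, and Macrophage 6 had 5127 CPM. Macrophage 2 had 1569 CPM and Macrophage 3 had 1277 CPM. A Ccl6 UMI was found in 95.2% of thinned Macrophage 4 cells, in 84.9% of the other cells and in 42.4% of the 33 T cells, where the level was 607 CPM. Unthinned, those shares were 99.6, 96.7 and 46.2%.

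The 12 highest genes by log2 ratio were taken, like the 12 lowest, from genes with a mean of at least 50 CPM over both groups. They included regulators and surface receptors besides Fabp1. Creb5, a transcription factor of the CREB family, led with 107 CPM in Macrophage 4 against 52.9 CPM in the other clusters of APM, a ratio of 2.01 (1.73 to 2.34). Phlda1, a pleckstrin-homology protein, had 131 against 66.3 CPM, and Zfp703, a zinc finger gene, had 122 against 64.0 CPM. C5ar1, the receptor for the complement fragment C5a, had 168 against 88.4 CPM, a ratio of 1.90 (1.69 to 2.14). Pmepa1, a gene of the TGF-β response, had 90.9 against 48.8 CPM. H2-DMa, part of the complex that loads peptides on MHC class II, had 272 against 147 CPM, a ratio of 1.85 (1.68 to 2.02). In APM, Macrophages 6, 10 and 1 had similar levels of H2-DMa, with 265, 259 and 251 CPM. Macrophage 8, which is not in the pool, had more, with 479 CPM. Against Macrophage 8, 11 of the 12 genes were above a log2 ratio of 0 and H2-DMa was below. Krt19, an epithelial keratin also found in alveolar macrophages, had 502 against 291 CPM. Eva1b, Kazald1, Cytip and Fcor completed the 12, with ratios between 1.80 for Cytip and 2.03 for Eva1b. For Cytip, a cytohesin-interacting protein of immune cells, the APM T cells had 304 CPM, a level between the 432 CPM of Macrophage 4 and the 239 CPM of the others.

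None of these 12 genes set Macrophage 4 apart from Macrophage 6. Against Macrophage 6, 5 of them were above and 7 below a log2 ratio of 0, between -0.34 for Cytip and 0.21 for Creb5, and none passed 1.5-fold. Against Macrophage 5 all 12 were above 0 with a median of 0.55, and 4 passed. Against Macrophages 2 and 3 all 12 passed, with medians of 2.05 and 2.48. Over all measured genes, 0.786% were higher against Macrophage 5, 10.4% against Macrophage 2 and 17.3% against Macrophage 3. The 12 were chosen against a pool that holds all of these clusters, so their counts there describe the choice. The median of all measured genes itself stood at 0.12 against Macrophage 2, 0.18 against Macrophage 3 and 0.24 against Macrophage 9. With Macrophages 2, 3, 7 and 10 left out of the other clusters, a setting chosen after seeing the data, 2 genes were higher and 39 lower. No gene was past 1.5-fold in the same direction against all 7 clusters with at least 50 APM cells.

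**Figure D3:**
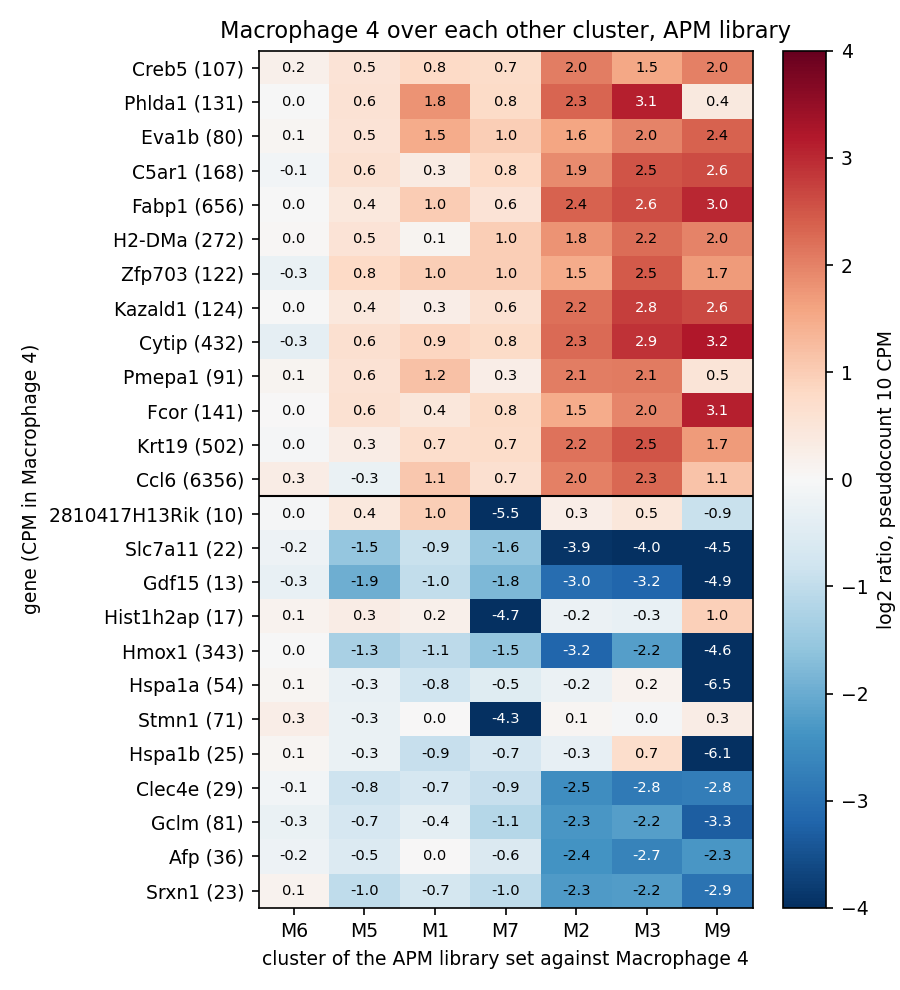
Log2 ratios, with a pseudocount of 10 CPM, of Macrophage 4 over each of 7 other alveolar macrophage clusters of APM. Rows are the 12 highest genes and Ccl6, then the 12 lowest genes, each with its CPM in Macrophage 4; red is higher in Macrophage 4, blue lower, and the colours stop at 4. The first column, Macrophage 6, stays between -0.34 and 0.31, and the 12 highest genes are red throughout the columns of Macrophages 2 and 3.

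Of the 12 lowest genes, 4 were on the Nrf2 and glutathione list given below (Slc7a11, Hmox1, Gclm and Srxn1), 2 on the heat shock list (Hspa1a and Hspa1b), 1 on the cell cycle list, 1 on the receptor list and 4 on none. Hmox1, which breaks down haem, had 343 CPM in Macrophage 4 and 1639 CPM in the other clusters of APM, so it was 4.78-fold lower (4.48 to 5.11). By cluster it had 98.2 CPM in Macrophage 10, 349 in Macrophage 6, 725 in Macrophage 1, 866 in Macrophage 5, 1018 in Macrophage 7, 1606 in Macrophage 3, 3167 in Macrophage 2 and 8284 in Macrophage 9. Slc7a11, the cystine transporter that feeds glutathione synthesis, had 21.7 against 229 CPM and was 10.6-fold lower (8.18 to 13.9). Gdf15, a stress-induced cytokine, had 12.8 against 119.8 CPM. The inducible heat shock genes Hspa1a and Hspa1b, whose reads may be shared, had 53.6 against 253 CPM and 25.2 against 114 CPM. For both, most of that gap lay in the 62 cells of Macrophage 9, with 5685 CPM of Hspa1a and 2481 CPM of Hspa1b. Without that cluster, a setting chosen after seeing the data, the others had 64.1 CPM of Hspa1a and 31.3 CPM of Hspa1b, and neither gene passed the mark, with log2 ratios of -0.22 and -0.23. Clec4e, a receptor for microbial glycolipids and dead cells, had 29.5 against 122 CPM. Afp, the fetal serum protein α-fetoprotein, had 35.9 against 125 CPM.

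The gene with the lowest log2 ratio of all, 2810417H13Rik, had 9.59 CPM in Macrophage 4 and 142 CPM in the other clusters of APM, 14.8-fold lower (10.1 to 22.6). The histone gene Hist1h2ap had 16.7 against 119.5 CPM and Stmn1, a microtubule regulator of dividing cells, 71.4 against 316 CPM. All 3 were high in the proliferating Macrophage 7, with 872, 691 and 1584 CPM. Without Macrophages 7 and 10 the others had 6.88, 16.0 and 72.4 CPM of the 3 genes, close to the levels in Macrophage 4.

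The list of Nrf2 and glutathione genes held 26 measured members, of which 13 were lower and 0 higher, with a median log2 ratio of -0.62. Over all measured genes, 3.04% were lower and 1.07% higher. These shares also stand behind each list count below that is taken over the other clusters of APM. Nrf2 is the transcription factor that switches on antioxidant enzymes under oxidant stress. Gclm and Gclc, the subunits of the rate-limiting enzyme of glutathione synthesis, had log2 ratios of -1.59 and -1.03. Srxn1, which repairs oxidized peroxiredoxins, had 23.4 CPM in Macrophage 4 against 87.9 CPM in the others. Prdx1, a peroxiredoxin, had 2399 against 5654 CPM, and Txnrd1, a thioredoxin reductase, had 101 against 251 CPM. Against Macrophage 6 alone the list's median was -0.03 with no member past 1.5-fold, against Macrophage 5 it was -0.27 with 5 lower, against Macrophage 2 it was -1.20 with 18 lower, and against Macrophage 3 it was -0.99 with 18 lower. Over all measured genes, 1.07% were lower against Macrophage 6, 1.24% against Macrophage 5, 6.88% against Macrophage 2 and 7.44% against Macrophage 3. No list median was computed for the 39 cells of Macrophage 10, which had 17.9 CPM of Slc7a11 and 80.3 CPM of Gclm.

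The promoters of Gclm and Txnrd1 are shown as examples of listed antioxidant genes that were low in Macrophage 4 and hold the core of the antioxidant response element, the site bound by Nrf2 with a small Maf partner. The build, source and window are as for Fabp1, and capitals mark TGACNNNGC or its reverse complement.
Gclm, chr3:122245307-122245556, plus strand: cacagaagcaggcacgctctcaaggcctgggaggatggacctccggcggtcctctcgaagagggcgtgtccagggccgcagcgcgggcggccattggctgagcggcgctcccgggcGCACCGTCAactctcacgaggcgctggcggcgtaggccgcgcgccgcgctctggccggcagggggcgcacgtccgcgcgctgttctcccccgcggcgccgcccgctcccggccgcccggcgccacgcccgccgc
Txnrd1, chr10:82858956-82859205, plus strand: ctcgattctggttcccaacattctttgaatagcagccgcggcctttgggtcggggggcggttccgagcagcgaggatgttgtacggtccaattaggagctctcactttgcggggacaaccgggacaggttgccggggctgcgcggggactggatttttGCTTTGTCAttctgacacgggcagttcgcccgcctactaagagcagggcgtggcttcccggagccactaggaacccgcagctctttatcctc
The match starts 134 bases before the RefSeq gene start in Gclm and 92 bases before it in Txnrd1. That start of Txnrd1 lies 25255 bases inside the gene as GENCODE draws it, and that of Gclm is the same base in both. On both strands of the 300-base windows the core was found in 14.0% of 27025 genes. Among the 13 lower Nrf2-list genes, 11 had a window and 5 of those (45.5%) held it, namely Gclm, Pgd, Prdx1, Srxn1 and Txnrd1. Among the other 13 measured members, 11 had a window and 4 (36.4%) held it. The shares of the lower and the other members thus lay close together. Of the 12 highest genes, 8 had a window and 2 held the core, Fabp1 and Kazald1. Of the 12 lowest, 8 had a window and 2 held it, Gclm and Srxn1.

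Metal and iron genes split. Of 9 measured members, 5 were lower in Macrophage 4 and 0 higher, with a median log2 ratio of -0.66. The lower ones were Hmox1, both ferritin subunits and both metallothioneins. The other 4 lay above 0 without passing, up to 0.46 for Trf, the iron carrier transferrin. The ferritin subunits, which store iron, had 20437 CPM for Fth1 in Macrophage 4 against 36635 CPM in the others, and 25337 against 41147 CPM for Ftl1. The metallothioneins, which bind zinc and other metals, had 6867 against 10892 CPM for Mt1 and 1449 against 2513 CPM for Mt2. The 4 transcripts were lowest in Macrophage 10 and, next to it, in Macrophage 6.

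Lipid genes lay in both directions. Fabp4 had 277 CPM in Macrophage 4 and 697 CPM in the other clusters of APM, 2.52-fold lower (2.34 to 2.72), and Fabp5 had 871 against 2047 CPM, 2.35-fold lower (2.25 to 2.45). Fabp1 ran the other way, as given above. In Macrophage 3 the picture was inverted, with 99.7 CPM of Fabp1, 1536 of Fabp4 and 4331 of Fabp5. The pattern was not particular to Macrophage 4. Macrophage 6 of APM shared it, with 662 CPM of Fabp1, 258 of Fabp4 and 627 of Fabp5. Macrophage 10 of APM had 411, 250 and 482 CPM of the same genes. Of 30 measured genes of fatty acid binding, uptake, storage and oxidation, 4 were higher in Macrophage 4 (Fabp1, Dgat2, Angptl4 and Cidec) and 3 lower (Fabp4, Fabp5 and Lipa), with a median of 0.16, which became -0.03 over genes of at least 100 CPM. Dgat2 makes triglyceride and Cidec coats lipid droplets. Lipa, the lysosomal acid lipase, had 231 against 432 CPM. Lpl and Plin2 differed little, with 1569 against 1699 CPM and 634 against 637 CPM.

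Among 22 measured genes of cholesterol synthesis and export none was higher and 6 were lower (median log2 ratio -0.38). The lower ones, Cyp51, Sqle, Idi1, Fdft1, Msmo1 and Insig1, are synthesis enzymes or, for Insig1, a regulator of that pathway. Cyp51 had 39.4 CPM in Macrophage 4 against 86.3 CPM in the others. Abcg1, which exports cholesterol, went the other way without passing the mark, with 951 against 653 CPM. Against Macrophage 6, 1 of 21 measured cholesterol genes was higher and 0 lower (median 0.03). Against Macrophage 5, 0 of 22 were higher and 1 lower. Against Macrophages 2 and 3, of 23 measured, 3 were higher in each, with 14 and 13 lower. Over all measured genes, 0.229, 0.786, 10.4 and 17.3% were higher against Macrophages 6, 5, 2 and 3. The lower shares were 1.07, 1.24, 6.88 and 7.44%. Of 36 lysosomal genes, 7 were lower and 0 higher. Among them Cd63, a membrane protein of late endosomes, had 374 against 758 CPM and the protease Ctsk had 303 against 591 CPM. In Macrophage 6 of APM, Cd63 and Ctsk had 269 and 250 CPM, below Macrophage 4. Against that cluster 0 of 35 lysosomal genes passed in either direction. Against Macrophage 5, 8 of 36 were lower and 0 higher.

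Alveolar macrophage identity genes were spread over both directions. Of 29 measured, 5 were higher in Macrophage 4, namely Krt19, Krt79, Ear2, Car4 and Cidec, and 4 were lower, namely Fabp4, Fabp5, Bhlhe41 and Ctsk, with a median of 0.23. Car4, a membrane carbonic anhydrase, had 463 against 291 CPM. Ear2, a ribonuclease whose reads may be shared with near-identical family members, had 1643 against 1006 CPM. Siglecf, a lectin that marks these cells, had 101 against 67.0 CPM and did not pass. Pparg had 60.3 against 45.4 CPM and the scavenger receptor Marco 396 against 410.2 CPM. Bhlhe41, a repressor that works with Bhlhe40 in alveolar macrophage identity and self-renewal, had 168 against 345 CPM.

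Cell cycle genes were lower in 16 of 23 measured members, with a median of -0.81. This rested on the proliferating clusters: without Macrophages 7 and 10 the median was 0.10. Top2a, a DNA topoisomerase of dividing cells, had 8.52 CPM in Macrophage 4, against 9.95 CPM in Macrophage 5, 7.90 CPM in Macrophage 6 and 520 CPM in Macrophage 7. Immediate early and heat shock genes split, with Fos and Jund higher and Hspa1a, Hspa1b, Atf3 and Hsp90aa1 lower among 21 measured. None passed among 67 nuclear respiratory chain genes, 83 cytosolic ribosomal protein genes or 12 mitochondrially encoded transcripts. Of 7 MHC class II genes H2-DMa alone passed, and of 14 MHC class I genes H2-T23 was lower. Among 4 measured chemokines, Ccl3 and Cxcl2 were lower, with 4.26 against 40.3 CPM and 16.7 against 53.5 CPM. Among 6 complement genes C5ar1 was higher. Of 21 scavenger and lectin receptors, Clec4e and Clec4d were lower. Among 16 genes of the unfolded protein response Ddit3 was lower. No gene passed among 7 of alternative activation, 5 of the interferon response, 12 of NF-kB and 11 of glycolysis. With 1.07% higher and 3.04% lower over all measured genes, lists this short can lack a passing gene at the common share.

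**Figure D4:**
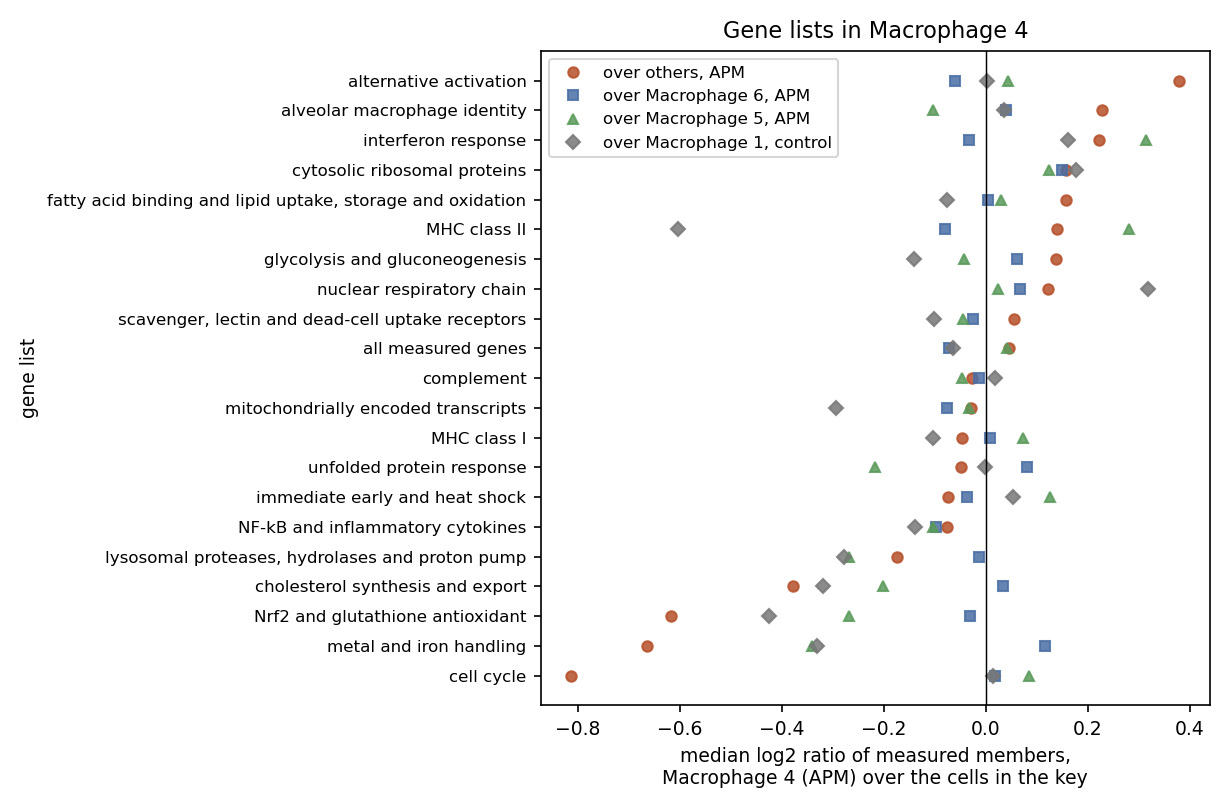
Median log2 ratio of the measured members of each gene list, and of all measured genes, for Macrophage 4 of APM over the other clusters of APM, over Macrophage 6 of APM, over Macrophage 5 of APM and over Macrophage 1 of control. The antioxidant, metal and cell cycle medians over the other clusters lie at -0.62, -0.66 and -0.81, and the medians over Macrophage 6 stay close to 0.

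Against its most similar cluster, Macrophage 6 of APM, Macrophage 4 showed few differences. Of 5249 measured genes, 12 (0.229%) were higher and 56 (1.07%) lower, and none reached 2-fold. With ratios centred on their median, which was -0.07, the split was 29 higher and 17 lower. Car4 was the highest among genes with a mean of at least 50 CPM over both clusters. It had 463 CPM in Macrophage 4 against 271 CPM in Macrophage 6, a ratio of 1.71 (1.51 to 1.93). Wfdc17, a small secreted inhibitor of inflammation, had 268 against 159 CPM, and Fdps, an enzyme of the mevalonate pathway, had 84.1 against 48.2 CPM. Ssna1, Sdhb and 9130401M01Rik followed, with ratios of at most 1.56. The lowest by the same rule were Zmiz2, Ccnl1, Man2a2, Celf1, Emc1 and Ids, which were 1.64-fold to 1.88-fold lower. All of these had at most 138 CPM in Macrophage 6. Ccnl1 and Celf1 act in RNA processing. Among cells of 1800 to 2700 UMIs, a range chosen after seeing the data that holds 543 Macrophage 4 and 383 Macrophage 6 cells, Car4 had 430.0 against 259 CPM and Wfdc17 196 against 177 CPM. In that range Fabp1 had 743 against 623 CPM and Ccl6 6666 against 4871 CPM. Of 4759 genes measured there, 58 were higher and 60 lower. Depth was not alike in these cells, with medians of 2395 UMIs in Macrophage 4 and 2012 in Macrophage 6.

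Against Macrophage 5 of APM, 40 of 5087 measured genes (0.786%) were higher and 63 (1.24%) lower. Centred on the median the split was 23 and 87, and without mitochondrial and ribosomal protein genes in the total it was 86 and 63. Within cells of 2700 to 4400 UMIs, a range chosen after seeing the data that holds 484 cells of Macrophage 4 and 240 of Macrophage 5, it was 70 (1.41%) and 151 (3.04%) of 4963 genes. The stress genes still differed there. Hmox1 had 345 against 1048 CPM, Slc7a11 21.1 against 104 CPM, Gdf15 13.9 against 84.6 CPM and Srxn1 25.1 against 66.8 CPM. Fabp5 had 988 against 1783 CPM in that range, and Fabp1 583 against 508 CPM. Depth was thus not alike in these cells either, with medians of 3049 and 3772 UMIs.

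Against the small Macrophage 1 cluster of APM, 94 cells, 370 of 5110 genes (7.24%) were higher and 428 (8.38%) lower. All 12 of the highest genes above, chosen against a pool that holds this cluster, were higher than 0 there and 8 passed. MHC class II genes stood out in the other direction, with 4 of 7 lower and a median of -0.83. H2-Aa, an MHC class II chain, had 261 CPM in Macrophage 4 against 620.0 CPM in Macrophage 1 of APM. The list's median over all other clusters of APM was 0.14, but it was -0.37 with Macrophage 8 added to them.

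Between libraries, Macrophage 4 of APM was set against Macrophage 1 of control, whose 1360 cells had a like depth, with a median of 2498 UMIs. Cluster and library cannot be told apart in this comparison. Of 5274 measured genes, 80 (1.52%) were higher and 161 (3.05%) lower in Macrophage 4 of APM, with a median of -0.06. Centred on that median, 123 were higher and 109 lower.

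The 6 highest genes with a mean of at least 50 CPM over both groups are known as transcripts of red blood cells and airway epithelium. Hba-a1, an α-globin, had 1254 CPM in Macrophage 4 of APM and 54.6 CPM in Macrophage 1 of control, a ratio of 22.98 (19.8 to 26.8). Hba-a2, Hbb-bs and Hbb-bt had ratios of 22.5, 19.7 and 15.3. Reads may be shared among these near-identical globin genes. Scgb1a1 and Scgb3a1, secretory proteins of airway epithelium, had ratios of 7.29 and 8.86. The same transcripts were abundant throughout the APM library: the 8 red blood cell markers summed to 5223 CPM in Macrophage 4 of APM, 5114 CPM in the other clusters of APM and 9172 CPM in APM T cells, against 235 CPM in the other clusters of control. The 18 epithelial and surfactant markers summed to 2702, 2325 and 2972 CPM in the same APM cells, against 434 CPM in control. In the T cells of APM, 1 cell held 48.0% of the globin UMIs, as given below.

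Counted per cell, all 1029 Macrophage 4 cells of APM held at least 1 UMI of the 4 globin genes, with a median of 10 and 80% of cells between 6 and 15. All 52 T cells of APM did so too, with a median of 5. In Macrophage 1 of control 47.7% of cells held one, with a median of 0. Among the T cells of APM, 1 cell held 275 of 573 globin UMIs, and without it their level was 4863 CPM. Without their top cells, Macrophage 4 of APM had 4719 CPM and the other clusters of APM 4732 CPM. Of the Macrophage 4 cells, 24 had 20 or more globin UMIs, up to 1410, and held 31.5% of the cluster's globin UMIs. In the 21 Macrophage 4 cells of control, 1 cell held 213 of 234 globin UMIs, and without it the level was 372 CPM. The protocol set out to keep red cells out of the lavage. No doublet caller was run, and the part that free RNA or red cells stuck to macrophages have in these levels was not tested.

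Ccl6, Fabp1 and Krt19 were higher in Macrophage 4 of APM than in Macrophage 1 of control and had low levels in APM T cells, with 607, 95.9 and 63.9 CPM. Creb5 passed too, with 107 against 58.4 CPM and 0 UMIs in APM T cells. Wfdc17 had 268 against 142 CPM, with 32.0 CPM in those T cells. Eva1b and Cytip passed as well, with 79.9 and 432 CPM in Macrophage 4 of APM against 42.0 and 273 CPM in Macrophage 1 of control, but APM T cells had 79.9 CPM of Eva1b, from 5 UMIs, and 304 CPM of Cytip. Ccl6 had 6356 against 3298 CPM, a ratio of 1.93 (1.88 to 1.97), and Fabp1 had 656 against 372 CPM, a ratio of 1.76 (1.64 to 1.90). Krt19 had 502 against 295 CPM. Cebpb, a transcription factor of myeloid cells, had 2044 against 1035 CPM, and Marco had 396 against 258 CPM. Within Macrophage 1, Ccl6 had 3012 CPM in APM against 3298 CPM in control, and Fabp1 321 against 372 CPM.

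The 6 lowest genes with a mean of at least 50 CPM over both groups were Hmox1, Mt2, Gm10076, Plxnd1, Cyp51 and Sqstm1. Hmox1 had 343 CPM in Macrophage 4 of APM and 1005 CPM in Macrophage 1 of control, 2.93-fold lower (2.73 to 3.15). Mt2 had 1449 against 3723 CPM, 2.57-fold lower (2.48 to 2.66). Sqstm1, an adaptor of selective autophagy and an Nrf2 target, had 186 against 407 CPM, and Cyp51 had 39.4 against 97.4 CPM. Plxnd1, a semaphorin receptor, had 28.0 against 73.5 CPM, and Gm10076, a gene model that GENCODE types as a non-coding RNA (lincRNA), had 44.0 against 112 CPM. The other clusters of APM had 47.7 CPM of Gm10076, close to Macrophage 4, and the other clusters of control had 102 CPM. Over all measured genes of this comparison, 3.05% were lower and 1.52% higher. Of 26 Nrf2 and glutathione genes 6 were lower and 0 higher, and of 22 cholesterol genes 6 were lower and 1, Ch25h, was higher. MHC class II genes were lower in 4 of 7 members, with a median of -0.60: H2-Aa had 261 against 511 CPM, H2-Ab1 226 against 387 CPM and H2-Eb1 98.3 against 185 CPM, with H2-DMb1 the other. Of 67 nuclear respiratory chain genes 3 were higher, namely Uqcrb, Ndufs7 and Ndufa12, and 0 lower, with a median of 0.32, while 2 of 12 mitochondrially encoded transcripts, mt-Nd2 and mt-Nd3, were lower. Fabp5 was lower here too, with 871 against 1358 CPM, and Fabp4 had 277 against 348 CPM. None of 13 cell cycle genes passed.

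**Figure D5:**
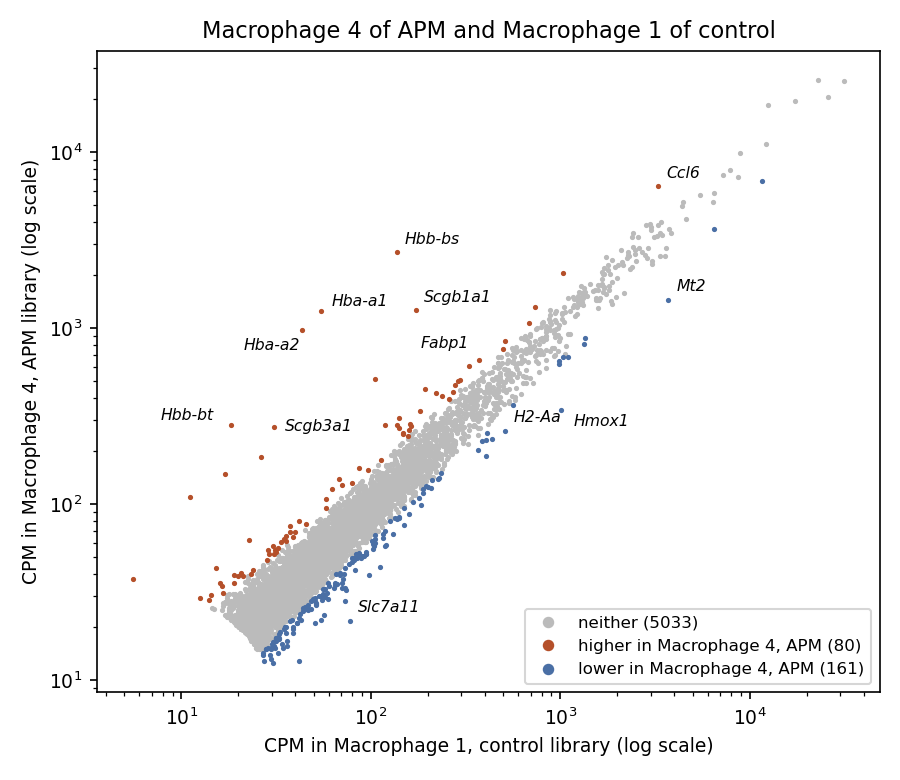
CPM of 5274 measured genes in Macrophage 4 of APM (vertical) and Macrophage 1 of control (horizontal), both on log axes. Coloured points are past 1.5-fold on the log2 scale with a pseudocount of 10 CPM, 80 higher and 161 lower in Macrophage 4; the globin and secretoglobin genes lie farthest above the diagonal.

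The 21 Macrophage 4 cells of control were too few for a comparison, and their levels are given with exact Poisson intervals only. Fabp1 had 656 CPM in Macrophage 4 of APM and 524 CPM (356 to 743) in Macrophage 4 of control, with 219 CPM in the other clusters of control. Ccl6 had 6356 CPM in Macrophage 4 of APM and 3700 CPM (3226 to 4223) in Macrophage 4 of control. Krt19 had 502 and 473 CPM in the same cells, and Hmox1 343 and 338 CPM, where the other clusters of control had 181 CPM of Krt19 and 2243 CPM of Hmox1. The control intervals of Fabp1, Krt19 and Hmox1 held the APM level, while that of Ccl6 lay below it. The intervals of some other named genes also missed the APM level. Fabp4 had 118 CPM (47.5 to 244) in Macrophage 4 of control against 277 CPM, and Cd63 had 169 CPM (81.0 to 311) against 374 CPM. Mt2 lay above, with 1892 CPM (1558 to 2277) against 1449 CPM, as did Pmepa1, with 186 CPM (92.8 to 332) against 90.9 CPM. Of the 2 HDM+APM cells, 1 held 6 Fabp1 and 43 Ccl6 UMIs and the other 0 and 19. The 1 HDM cell held 0 Fabp1 and 10 Ccl6 UMIs.

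Among the 1029 APM cells, after thinning to 1000 UMIs, the variance over mean exceeded 2 for 19 of 1460 genes. Most of these genes have few UMIs per cell at that depth, where counting holds the ratio near 1. The 10 most variable were Hba-a1, Hbb-bs, Actb, Hba-a2, Mt1, Malat1, Ftl1, Fth1, Mt2 and Sftpc, with ratios of 22.4 for Hba-a1 to 4.57 for Sftpc. Actb, cytoplasmic actin, had a ratio of 14.4, with a median of 12 UMIs, a 10th percentile of 5 and a 90th percentile of 41; 35.5% of cells had under 10 Actb UMIs and 10.8% had 40 or more. Mt1 had a ratio of 12.1, with a median of 3 and a 90th percentile of 19 UMIs. Ccl6 had 3.92, Hmox1 2.33 and Fabp1 2.07.

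Correlations over the same 1029 thinned cells, which share a library and a depth, describe which genes varied together. Mt1 followed Mt2 with a Pearson r of 0.68, and Ftl1 followed Fth1 with 0.49. Ccl6 ran against Mt1, with an r of -0.30, and the same pair gave -0.31 in Macrophage 5 and -0.39 in Macrophage 6. The gene that followed Actb most closely was Slc39a1, a zinc importer, with an r of 0.32, against 0.33 in Macrophage 5 and 0.26 in Macrophage 6. These patterns were thus shared with the nearest clusters.

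Across the whole data set, 42 of 9883 barcodes occurred in more than 1 library, and 5 of the 1029 Macrophage 4 cells of APM carried such a barcode.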

How the data were processed

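Raw UMI counts were deposited by the authors as a matrix of 13838 genes by 9925 cells from 4 pooled lavage libraries (10x Genomics 3' chemistry, v2), and a metadata table that names each cell's library, coarse type and cluster. Cell Ranger 2.2.0, Seurat 2.3.4 and the build mm10 appear in the submitters' processing notes without their roles. The cells' filters are not given in the sources used here; deposited cells held 496 to 9998 UMIs, and all were kept. The APM library held 11355310 UMIs and the control library 15170333.

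UMI counts were summed over the cells of a cluster in a library and scaled to CPM with Python 3.11.15, numpy 2.4.6 and scipy 1.17.1. Genes were measured with a mean of at least 20 CPM and 50 UMIs over both groups. Ratios have exact conditional binomial 95% intervals. The ratios were tested on simulated data. Figures were drawn with matplotlib 3.10.9. Macrophage 8, which carries markers of other macrophages, entered only as an alternative. Genes were named as the 12 highest and 12 lowest within APM and the 6 highest and 6 lowest in the other comparisons. All of these had a mean of at least 50 CPM over both groups. Also named were the 10 most variable, up to 3 members of each list, and list members where a list is described. Immunoglobulin genes were not analysed here. The members and the 21 gene lists were chosen with earlier results of these data known. Alternatives were another pseudocount, gene minimum, fold, centring, weighting of cells or clusters, depth range, thinning, total and make-up of the other clusters.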

Additional observations from a re-analysis of the deposited data

How the results depend on the processing

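No paired analysis was possible because each group is 1 pooled library. Counts of genes past the mark depended on the settings, and directions of named genes mostly did not. Within APM against the other clusters (55 higher, 156 lower), 136 were higher with a pseudocount of 1 CPM, 14 higher and 60 lower with 50 CPM, 301 lower with no minimum, 21 and 53 at 100 CPM or more, 0 and 45 past 2-fold, 27 higher with cells weighted equally, 90 higher without mitochondrial and ribosomal genes, 169 higher without Macrophage 6, 104 higher with clusters weighted equally, 99 higher in cells of 2000 to 4000 UMIs, and 2 and 39 without Macrophages 2, 3, 7 and 10. Against Macrophage 1 of control (80 higher, 161 lower) there were 129 and 339 with a pseudocount of 1 CPM, 37 and 26 with 50 CPM, 40 and 38 at 100 CPM or more, 16 and 9 past 2-fold, 123 higher when centred, and 128 and 328 with thinned cells. Against Macrophage 6 (12 higher, 56 lower) there were 53 and 192 with a pseudocount of 1 CPM, 2 and 0 with 50 CPM, 45 and 110 with no minimum, 2 and 3 at 100 CPM or more, 0 and 0 past 2-fold, 29 and 17 when centred, 49 and 122 with thinned cells, 26 higher without mitochondrial and ribosomal genes, and 58 higher in cells of 1800 to 2700 UMIs. Fabp1 was found in 62.2% of unthinned cells and 53.8% at 2000 UMIs, and Ccl6 in 99.6 and 99.3%.

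List medians of at least 0.1 in size changed sign in 12 cases. Over the other clusters of APM these were fatty acid genes (-0.0324 at 100 CPM or more), alternative activation (-0.0182 with no minimum), MHC class II (-0.37 with Macrophage 8, -0.00839 without Macrophages 2, 3, 7 and 10), interferon (-0.22 with no minimum) and cell cycle (0.10 without Macrophages 7 and 10, 0.0693 also without 2 and 3). Over Macrophage 1 of control they were interferon (-0.0777 with no minimum, -0.00254 with thinned cells, -0.16 without mitochondrial and ribosomal genes) and scavenger receptors (0.0742 at 100 CPM or more). Over Macrophage 6 it was metal genes (-0.0841 in cells of 1800 to 2700 UMIs). No cause was tested. Under the alternatives, 1413 gene ratios stayed within their counting interval, 262 did not, and no ratio past the mark changed sign. Genes of few UMIs have wide intervals, and the 21 control cells limit any statement on Macrophage 4 in filtered air.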
